A study of Caenorhabditis elegans with 8 samples.

Results

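Regions of RNA enriched with the protein MSTR-1 were examined in mid-length named genes of Caenorhabditis elegans, meaning protein-coding genes with a lower-case gene name and a span of at least 1500 bp and below 5000 bp. A region was counted here when the RefSeq protein-coding gene that it overlaps most met both conditions. The list that the authors deposited for the tagged strain holds 1207 regions, and 385 of them (31.9%) met the rule. These 385 regions lay in 300 of the 5919 protein-coding genes with such a name and span.

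The study used RNA immunoprecipitation and sequencing (RIP-seq) on young adult worms kept at 25 °C and crosslinked for 30 min with 2% formaldehyde. The 4 groups of 2 biological replicates were the FLAG immunoprecipitate of strain WD656, its input, the FLAG immunoprecipitate of N2, and the N2 input. WD656 carries F22D6.2(on49[MSTR-1::3xFLAG]) I, a tag on the worm's own copy of mstr-1, so the tagged protein is made wherever that gene is active. N2 is the wild-type laboratory strain, has no FLAG tag, and serves as the background for antibody and beads. Every sample came from whole worm lysate, so tissues cannot be separated. The deposited list has 1 set of values per region and no value per library, and all its region names carry the second immunoprecipitate of the tagged strain. No replicate error, depth per sample or test between groups can therefore be given, and the label whole worm could not be checked against marker levels.

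In RIP-seq, a tagged RNA-binding protein is purified with the RNA attached to it, and reads pile up where transcripts were recovered. A peak caller then marks stretches where the pileup exceeds a control. It gives each stretch a summit, the base taken as the top of the peak. The span of a worm gene runs from its first to its last annotated base and includes introns, while reads from mature messenger RNA fall on exons. Genes of this length include many metabolic enzymes, chaperones and factors of translation, whose messengers are needed in most tissues. Coordinates are those of the deposited list, whose genome build is not stated, and gene spans are from RefSeq for WBcel235. The RefSeq gene table used here gives neither strand nor exons. Positions along a gene are therefore given from its left end, the lower coordinate, to its right end, and the left end may be either the start or the end of transcription.

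A region was found in 300 of 5919 mid-length named genes (5.07%, exact 95% interval 4.52 to 5.66), against 4.49% of all 19983 protein-coding genes (897 genes). The share was 7.23% for named genes below 1500 bp (219 of 3029) and 9.36% for named genes of 5000 bp or more (217 of 2319). It was 1.85% for genes without a gene name (161 of 8716). The mid-length share was thus close to the background of all genes, and below that of both shorter and longer named genes. No test of these differences was made, because genes are not replicates and expression was not measured in these files.

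The gene of the tagged protein is itself a mid-length named gene. mstr-1 (F22D6.2) lies on chromosome I and spans 1653 bp. Its single region lay at chrI:7080511-7081417, was 907 bp wide and covered 54.9% of the gene. The summit was at 90.6% of the span, 156 bp from the right end. The recovered pileup was 88 reads (exact Poisson 95% interval 70.6 to 108.4) over a control level of 38.3, giving the authors' fold of 2.26. By fold it ranked 144th of the 385 regions, so the tagged protein's own transcript stood in the upper part of this set but far from its top.

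The regions were of moderate width and covered a minority of each gene. Their median width was 670 bp (quartiles 378 and 1123, range 230 to 4141), against 572 bp in short named genes, 817 bp in long named genes and 642 bp over all 1207 regions. A single region covered a median of 24.6% of its gene's span (quartiles 14.4 and 44.7), against 60.6% in short and 7.20% in long named genes. The median over all regions with a protein-coding gene was 22.6%. Width changed little with the length of the gene within this range. The medians were 634 bp for the 182 regions in genes of 1500 bp to below 2500 bp, 660 bp for the 108 in genes of 2500 bp to below 3500 bp, and 745 bp for the 95 in genes of 3500 bp to below 5000 bp. The covered share was accordingly 31.7%, 21.5% and 18.6% in these 3 bins. Over the 385 regions Spearman's rho between width and span was 0.10, a description over regions that share libraries and, in part, genes.

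**Figure D1:**
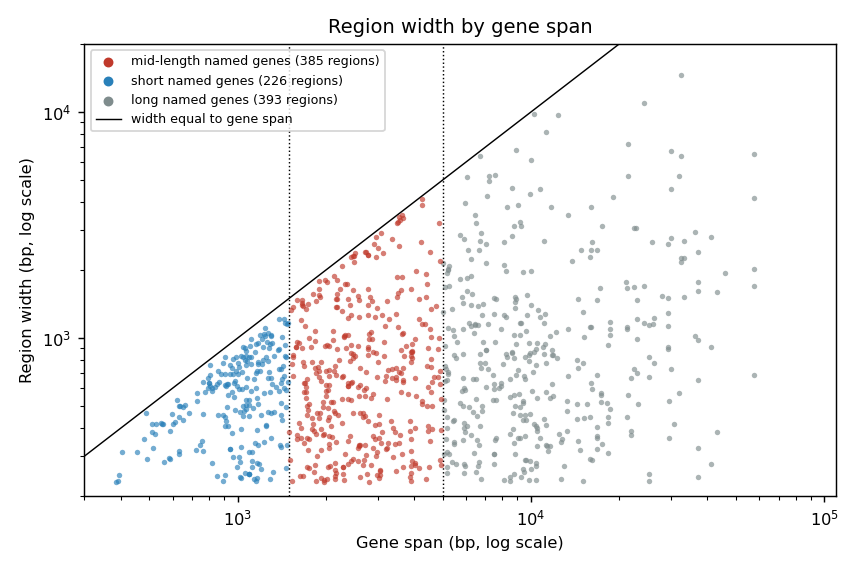
Width of each region (vertical axis, bp, log scale) against the span of its gene (horizontal axis, bp, log scale) for mid-length, short and long named genes, 1 point per region. The 385 regions of mid-length genes (red) fill the space from 230 bp up to the line where width equals span, with the widest at 4141 bp.

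Some regions ran over nearly the whole gene. At least 80% of the span was covered by 39 of the 385 regions, and at least 50% by 83 (21.6%). In the whole list 84 regions covered at least 80%, and 24.5% of regions with a protein-coding gene covered at least 50%. The widest was at chrIII:3804891-3809031 in toh-1, which encodes an astacin-like metalloprotease, and covered 97.2% of the gene. Next in width were regions in ucr-2.2 (3874 bp, 91.3% of the span), which encodes a core protein of respiratory complex III, and in hgrs-1 (3516 bp, 96.6%), which encodes a protein of endosomal sorting. cal-5, encoding a calmodulin-like protein, had 3420 bp (95.99%), and maph-1.3 had 3410 bp (93.1%). The region of ucr-2.2 also overlapped the collagen gene col-41. Whether bases of introns inside such wide regions carried reads cannot be seen in the list.

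At the other extreme, the narrowest regions were near the smallest width in the whole list, 230 bp. They lay in the enolase gene enol-1 (230 bp), the tyrosine aminotransferase gene tatn-1 (231 bp), lron-7 and the RNA export factor gene aly-3 (233 bp each) and acer-1 (234 bp). lron-7, which encodes a protein with leucine-rich repeats, had one of the highest folds of the set in this narrow region. At chrX:7294397-7294629 its pileup was 74 reads (58.1 to 92.9) over 17.5, a fold of 4.06, within 5.96% of the span. The regions that covered at least 50% of their gene had a median fold of 2.21 over a control level of 22.98, and those that covered less had 2.01 over 24.9.

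Summits were spread along the genes, with fewer close to the ends. Dividing each span into 3 equal parts put 144 of 384 summits in the left part (37.5%, exact 95% interval 32.6 to 42.6), 115 in the middle part (29.9%, 25.4 to 34.8) and 125 in the right part (32.6%, 27.9 to 37.5). An even spread gives 33.3% in each, which lies inside all 3 intervals. The intervals cover counting error only and treat regions as independent, although some share a gene. In short named genes the middle part held the most summits, 106 of 226 (46.9%), and in long named genes it held 108 of 393 (27.5%). Over the whole list the left, middle and right parts held 32.1%, 33.7% and 34.1%. With the midpoint of the region in place of its summit, the shares in mid-length genes became 30.3%, 39.2% and 30.5%, so the lower share in the middle depends on the point used.

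In steps of 10% of the span, the most summits lay between 80 and 90% (60 summits, 15.6%) and between 10 and 20% (53, 13.8%). The outermost steps held the fewest, 21 at the left end (5.47%) and 20 at the right end (5.21%). In long named genes the outermost steps held 10.2% and 13.5%, and in short named genes 0.442% each. The median distance from a summit to the nearer end of its gene was 600 bp in mid-length genes (quartiles 349 and 927), 312 bp in short genes and 2216 bp in long genes. A share of the span thus stands for different distances in the 3 sets, and no test of the differences was made.

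**Figure D2:**
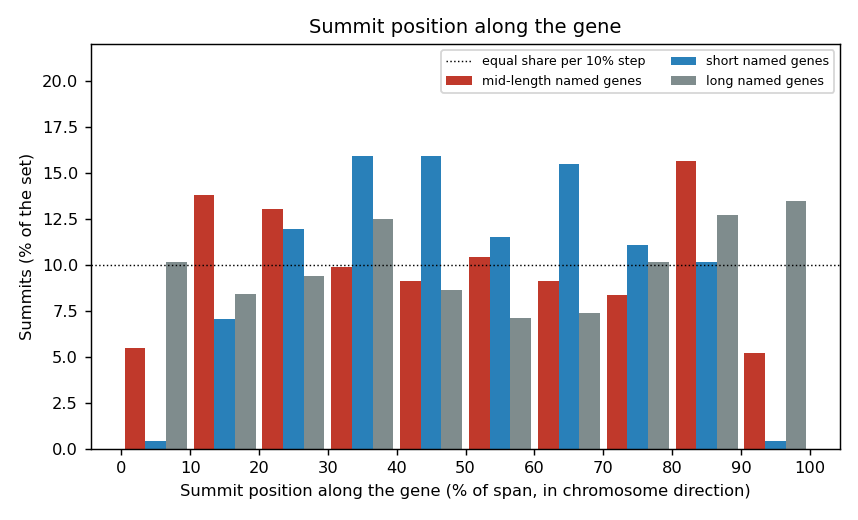
Share of summits (vertical axis, % of each set) in each 10% of the gene span (horizontal axis, % of span in chromosome direction) for mid-length, short and long named genes, with a dotted line at an equal share. In mid-length genes the bars are highest at 10 to 20% (13.8%) and 80 to 90% (15.6%) and lowest in the outermost steps (5.47 and 5.21%).

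The summits nearest a left end were in ola-1 (3.48% along the span), which encodes an Obg-like ATPase, and in vha-19 (4.12%), which encodes a subunit of the vacuolar proton pump. They were followed by phy-2 (5.13%), asp-14 (5.45%), an aspartyl protease gene, and ule-1 (5.69%). Nearest the right end were algn-12, pab-2 (97.2%), which encodes a poly(A)-binding protein, clec-50 (96.1%), nduf-7 (96.01%) and mlt-8 (96.01%). algn-12 is a special case. Its region at chrV:8039566-8040370 shares 2.45% of the gene's span, its summit lies 307 bp outside the gene and inside the annotated pseudogene ZC513.7, and it belongs here only because no other protein-coding gene overlaps it. All other 384 summits fell inside their gene, and 379 of the 385 regions lay wholly within it.

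Regions seldom reached the annotated ends. At least 1 edge came within 100 bp of an end, or passed it, in 85 regions (22.1%), against 136 of 226 in short genes (60.2%) and 35 of 393 in long genes (8.91%). Over all regions with a protein-coding gene the share was 26.6%. Of the 85, 36 reached the left end only, 44 the right end only and 5 both.

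Some genes carried several regions. Of the 300 genes, 223 had 1 region, 70 had 2, 6 had 3 and icl-1 had 4. The share with at least 2 was 25.7%, against 3.20% in short and 45.2% in long named genes. Over all 897 genes with a region it was 23.1%, near the mid-length share. The gap between neighbouring regions of the same gene had a median of 434 bp over 85 pairs in 77 genes (quartiles 308 and 763, range 233 to 2652). No gap in the whole list was under 233 bp. In 37 pairs the summits lay in the left and the right part of the gene, in 39 in adjoining parts and in 9 in the same part. The regions of a gene together covered a median of 52.2% of the span in the 77 genes, against 28.9% in the 223 genes with 1 region.

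Neighbouring regions of the same gene mostly had folds within 1.5 times of each other. The higher fold divided by the lower had a median of 1.17 over the 85 pairs, and reached 1.5 in 12. Spearman's rho between the folds of left and right neighbours was 0.63 over the 85 pairs, a description over regions that share libraries and genes. No comparison with pairs from different genes was made. The left region was higher in 46 pairs, the right in 37, and 2 pairs were equal. The largest differences within a gene were in spp-8 (fold 4.07 over a control of 13.5 and 1.81 over 30.98), ola-1 (3.72 over 14.04 and 1.66 over 35.7) and lron-7 (4.06 over 17.5 and 1.85 over 38.9). In these 3 genes the region with the lower fold had the higher control level, while the pileups were close, at 58 and 57 reads in spp-8, 55 and 60 in ola-1 and 74 and 73 in lron-7. Since the fold is a ratio, its difference within spp-8, ola-1 and lron-7 lay mainly in the control term.

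The genes with at least 3 regions were mostly metabolic enzymes. icl-1 on chromosome V, which encodes the enzyme of the glyoxylate cycle, had 4 regions over 62.7% of its span with folds of 1.41, 1.44, 1.80 and 1.29 from left to right. phy-2 on chromosome IV, which encodes a collagen prolyl 4-hydroxylase of the cuticle, had folds of 3.11, 3.73 and 3.13 over 65.6% of its span. pcca-1 (propionyl-CoA carboxylase) had 2.19, 1.63 and 1.99, and the pyruvate carboxylase gene pyc-1 had 2.07, 1.67 and 1.94. Glutamate dehydrogenase, gdh-1, had 1.45, 1.61 and 1.16, and the aldehyde dehydrogenase gene alh-8 had 1.60, 1.37 and 1.26. The tyrosinase gene tyr-2 had 2.52, 1.62 and 1.97. All 3 regions of phy-2 exceeded 3, and no other gene of this group reached that fold in any region.

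**Figure D3:**
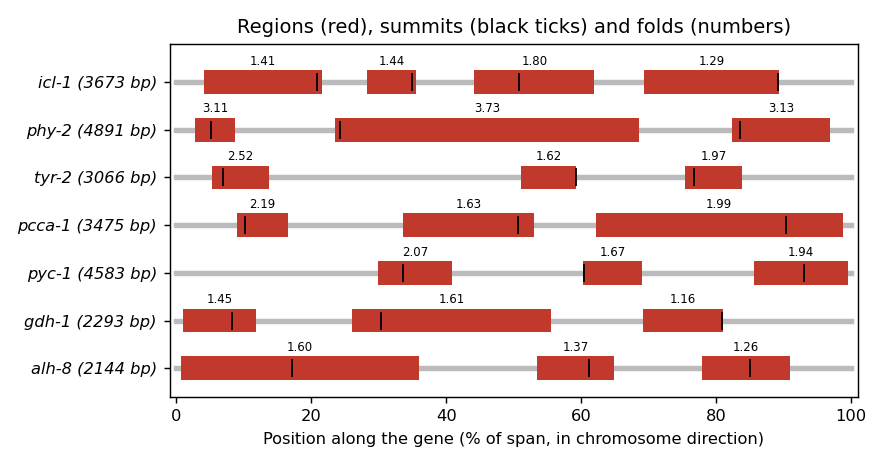
Position of each region (red blocks), its summit (black tick) and the authors' fold (number above) along the span of the 7 mid-length named genes with at least 3 regions (horizontal axis, % of span in chromosome direction). The blocks of icl-1 together cover 62.7% of its span, and the 3 regions of phy-2 have the highest folds, from 3.11 to 3.73.

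The authors' fold over control had a median of 2.07 in mid-length named genes (quartiles 1.71 and 2.48, range 1.11 to 5.56), against 1.88 in short genes, 2.14 in long genes and 2.10 over all regions. At least 2-fold was measured in 211 regions (54.8%), against 58.4% of all regions. At least 3-fold was measured in 39 (10.1%, exact 95% interval 7.30 to 13.6), against 10.7%, and at least 4-fold in 9 (2.34%), against 1.91%. These shares are near the background. The pileup had a median of 58 reads and the control level a median of 24.9, against 170.5 and 99.6 in short genes and 41 and 17.2 in long genes.

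The fold fell as the control level rose. Spearman's rho between fold and control level was −0.67 over the 385 regions, a description, as the control is part of the fold. In the 78 regions at the lowest control level, the floor of 13.49 reads, the median fold was 2.48 and the lowest 1.86. Where the control level exceeded 100 reads, in 65 regions, the median was 1.44 and the highest 2.48. Folds were thus lower where coverage was high. The list holds only called regions, with a lowest −log10 q of 1.30 and a smallest pileup of 26 reads. Low folds at a low control level may therefore be missing from it by selection. The part of this selection, and of coverage in any difference of fold between genes, was not tested.

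**Figure D4:**
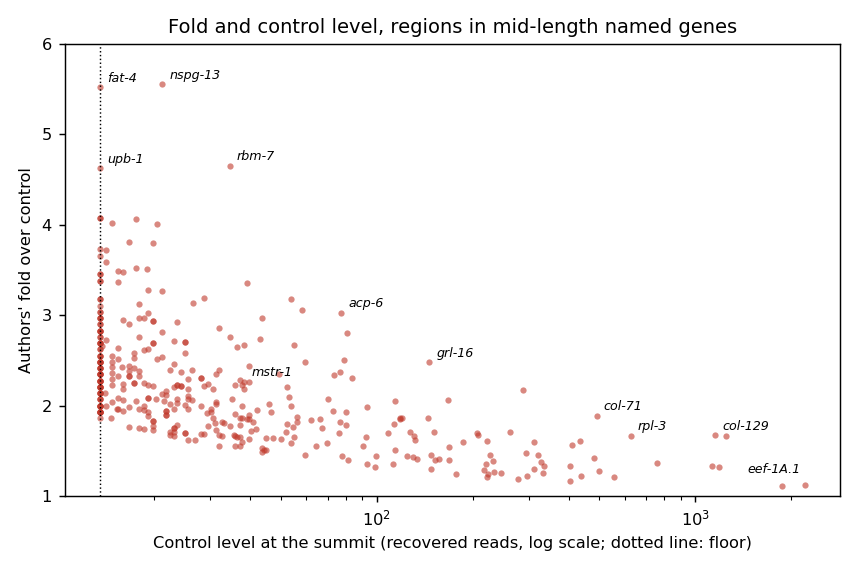
The authors' fold (vertical axis) against the recovered control level at the summit (horizontal axis, reads, log scale) for the 385 regions, 1 point per region, with the control floor as a dotted line. Folds above 4 occur only at control levels up to 34.5 reads, and the points at levels above 100 lie at 2.48 or below.

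Genes with the highest folds had little in common by name. nspg-13, at chrX:5255325-5256753, had 122 reads (101.3 to 145.7) over 21.1, a fold of 5.56, and the region covered 85.98% of the gene. fat-4, which encodes a fatty acid desaturase, had a fold of 5.52 at chrIV:9801224-9802065 from 79 reads (62.5 to 98.5) over the floor. rbm-7, for an RNA-binding protein, followed with 4.65 from 164 reads (139.9 to 191.1) over 34.5. Its region also overlapped Y37D8A.19. upb-1, which encodes an enzyme of pyrimidine base breakdown, had 4.62 from 66 reads over the floor.

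toh-1 and the saposin-like gene spp-8 had the same values, 58 reads over the floor and a fold of 4.07. lron-7 (4.06), cal-5 (4.02) and the short-chain dehydrogenase gene dhs-25 (4.01) completed the 9 regions with a fold of at least 4. lon-1, which encodes a secreted protein that limits body length, had 3.81 in a region over 92.6% of the gene, and clec-150, a C-type lectin-like gene, had 3.80 over 92.4%. Below them were phy-2 (3.73), ola-1 (3.72), erfa-1 (3.66), which encodes the translation release factor, ule-1 (3.59), suca-1 (3.52), the collagen gene col-135 (3.51), gmap-1 (3.49) and nuc-1 (3.48). The phosphatase gene pho-1 and tmed-4, a gene of the early secretory pathway, tied at 3.45. Summits of these genes lay anywhere from 5.69% (ule-1) to 93.3% (gmap-1) along the span.

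Gene function was described with 21 classes defined by gene name, which held 2431 of the 5919 genes and 192 of the 300 with a region. A class counts only mid-length members whose names match its list. Genes of a similar role under other names are left out. The background is the share of 5.07% over all mid-length named genes. The counts were not tested, and the median control level at the summits ranged from 13.49 to 627.5 reads between classes. In whole-worm samples, fewer cells of a type and less RNA per cell cannot be told apart.

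Among classes with more than 2 genes, that of oxidative phosphorylation and mitochondrial carriers had the highest share. In this class 12 of 19 genes carried a region (63.2%, exact 95% interval 38.4 to 83.7), with a median fold of 2.20 over a control level of 40.6. The 12 include ivd-1, a gene of branched-chain amino acid breakdown. nuo-2, a subunit of complex I, had 2.90 and 2.71 in its 2 regions, from 50 and 64 reads. ucr-1, a core subunit of complex III, had 2.74 and 1.93, from 119 and 155 reads. nuo-4 (complex I) had 2.63 and ucr-2.1 (complex III) had 2.44. Complex I, complex II and electron transfer flavoprotein genes under newer names were outside the class and were listed after the members had been seen: 6 of 10 mid-length ones carried a region. They were nduf-7 (3.03 and 2.92), nduf-11 (2.86 and 2.21), etfa-1 (2.58 and 2.42), ndub-8 (1.82), sdha-1 (1.82) and etfb-1 (1.45).

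Enzymes of central carbon metabolism were the largest class by regions. The class is broad and also holds the aldehyde dehydrogenase genes alh-4 and alh-8 and amino acid enzyme genes such as gdh-1 and gln-3. Here 24 of 61 genes carried 39 regions (39.3%, 27.1 to 52.7), evenly split with 13 summits in each part of the gene. suca-1, which encodes a subunit of succinyl-CoA synthetase, was highest at 3.52 from 64 reads (49.3 to 81.7) over 17.5. dlat-2 had 2.97, alh-4 had 2.81 and the aspartate aminotransferase gene got-1.2 had 2.62. Most others had low folds over high coverage: the class median was 1.67 over a control level of 64.5, against 2.07 over 24.9 in all members. The part of coverage in these counts and folds was not tested.

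Breakdown of amino acids, propionate and pyrimidine bases was described with 5 further lists. These lists were written after the members had been seen, so their counts are a description only. Of their 25 mid-length genes, 15 carried a region, 26 regions in all, with a median fold of 2.38 over a control level of 21.1. In the breakdown of tyrosine, phenylalanine and tryptophan, 4 of 7 genes did: tdo-2 (2.55 in both regions), hpd-1 (2.52), fah-1 (2.30 and 2.07) and tatn-1 (1.79 and 1.66). In branched-chain amino acid breakdown, 4 of 7 did: dbt-1 (2.51 and 2.38), bcat-1 (2.49 and 2.13), ivd-1 (2.38) and bckd-1A (2.04 and 1.67). ivd-1 is also counted in the class of oxidative phosphorylation and mitochondrial carriers, and the other genes with a region in the 5 lists are in no class.

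For pyrimidine bases 3 of 5 genes carried a region, upb-1 (4.62 and 2.97), dpyd-1 (2.95 and 2.07) and gta-1 (2.70). Both mid-length genes of the glycine cleavage system did, gldc-1 (3.04 and 2.54) and gcst-1 (2.55), and 2 of the 4 listed for propionate, pcca-1 and pccb-1 (1.85). The propionate list leaves out acdh-1, a further gene of propionate breakdown with a region, which is counted under lipid metabolism. The mid-length genes of these lists without a region were pah-1, kynu-1, haao-1, bckd-1B, mccc-1, mccc-2, mmcm-1, mmaa-1, dhp-1 and dhp-2.

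In lipid metabolism 16 of 108 genes carried a region (14.8%, 8.71 to 22.9), with a median fold of 2.37 over 22.02. fat-4 had 5.52 and 3.20 in its right and left regions. acdh-1, an acyl-CoA dehydrogenase of propionate breakdown, had 3.38 and 2.97, and elo-6, an elongase for branched-chain fatty acids, had 3.36 and 2.93. pmt-1, which encodes a methyltransferase of phosphatidylcholine synthesis, had 3.18 from 173 reads (148.2 to 200.8) over 53.7. Of the 20 regions, 15 had a fold of at least 2.

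Lysosomal and digestive hydrolases, a class that includes saposin-like genes, carried regions in 17 of 71 genes (23.9%, 14.6 to 35.5). The median fold was 2.26 over 36.4. spp-8 led with 4.07, then nuc-1, a deoxyribonuclease, with 3.48 and 3.38 near its left and right ends, and pho-1, an intestinal acid phosphatase, with 3.45. acp-6, a gene of the acid phosphatase family, had a fold of 3.03 at high coverage, from 236 reads (206.8 to 268.1) over 77.2. Among subunits of the vacuolar proton pump, 5 of 9 genes did (55.6%, 21.2 to 86.3), vha-19 (2.76 and 1.71), vha-16 (1.86 and 1.82), vha-12 (1.78), vha-13 (1.65) and vha-6 (1.44).

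Translation factors carried regions in 10 of 31 genes (32.3%, 16.7 to 51.4) with a median fold of 1.69 over 35.5. erfa-1 (3.66), eif-3.I (3.04), eif-1 (2.90, overlapping pigb-1 too) and eif-3.J (2.08) were highest. The elongation factor gene eef-1A.1 had the highest pileup of all members, about 2480 reads over 2215, and a fold of 1.12. Next in pileup, after the other region of eef-1A.1, was the collagen gene col-159. Chaperones and folding enzymes carried regions in 12 of 48 genes (25.0%, 13.6 to 39.6), with a median of 1.41 over 166.6. dnj-16 (2.48), hsp-110 (2.08), pdi-3 (2.06) and pdi-1 (2.02) were the only 4 with a fold of at least 2. Of 2 mid-length ribosomal protein genes, rpl-3 had a region, with 1.67 from about 1048 reads over 627.5. Among aminoacyl tRNA synthetases 2 of 26 did, dars-1 (2.76) and aars-2 (2.14).

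Cuticle genes were counted in 2 classes. Collagens, the structural proteins of the cuticle, carried regions in 10 of 48 genes (20.8%, 10.5 to 34.99), with a median fold of 1.67 over a control level of 164.7. col-135 (3.51), col-76 (2.83), col-7 (2.06) and col-71 (1.89) were highest. Enzymes and other apical matrix proteins carried regions in 4 of 114 genes (3.51%, 0.964 to 8.74). They were toh-1 (4.07), phy-2 (3.73, 3.13 and 3.11), the molting gene mlt-8 (2.76) and the ground-like gene grl-16 (2.48 and 1.60). Their 7 regions had the highest median fold of any class, 3.11, over a control level of 13.49. However, 3 of the 7 regions lie in phy-2, the median is the value of its lowest region, and 4 of the 7 are at the control floor. Collagen sequences resemble each other, and the treatment of reads that match several genes was not given in the sources used here.

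RNA-binding and processing genes carried regions in 14 of 111 cases (12.6%, 7.07 to 20.3), with a median of 2.24 over 22.3. Beside rbm-7, the class held nol-56, a nucleolar protein gene, with 3.28 in a region that overlaps 2 annotated snoRNA genes, and the Y-box protein gene cey-1 (2.50, 198 reads over 78.5). mstr-1 itself was placed in this class because its protein was purified with RNA.

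Secreted peptides and related genes carried regions in 7 of 66 genes (10.6%, 4.37 to 20.6), led by nspg-13, ttr-48 (2.48), dod-19 (2.37) and nlp-10 (2.14). Adhesion, matrix and lectin genes did in 12 of 182 (6.59%, 3.45 to 11.2), of which 9 were C-type lectin genes. C-type lectin genes among the 182 were not counted, so no share with a region is given for them. After lron-7 and clec-150 came clec-52 (2.97 over 92.4% of the gene) and the galectin gene lec-4 (2.83 over 93.6%).

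The remaining classes were near or below the background. Kinases, phosphatases and small G proteins carried regions in 7 of 87 genes (8.05%, 3.30 to 15.9), among them the protein phosphatase gene gsp-2 (2.39), both casein kinase 2 subunits, kin-10 (2.35) and kin-3 (2.01), and pmk-3 (1.93). Cytoskeleton and muscle genes had 4 of 60 (6.67%), unc-60 (2.28), the tubulin genes tba-4 (1.75) and tbb-2 (1.30), and the profilin gene pfn-1 (1.73). Vesicle traffic had 5 of 76 (6.58%), with tmed-4, epn-1 (2.39), tmed-10 (1.96) and copg-1 (1.83) highest. Channels, pumps and transporters, a class that includes calmodulin-like genes, had 13 of 220 (5.91%). Highest were cal-5, the nucleoside transporter gene ent-2 (2.83), the sodium pump gene eat-6 (2.80, from 227 reads over 80.4) and mct-1 (2.73). Redox and xenobiotic enzymes had 7 of 185 (3.78%), led by dhs-25, the catalase gene ctl-2 (2.42), emb-8 (2.33) and cyp-25A2 (2.21).

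By these name matches, the large regulatory families were lowest. Proteasome and ubiquitin genes, a class that includes the many F-box genes, carried regions in 5 of 204 (2.45%, 0.801 to 5.63), with ubc-13 (2.42), rnf-121 (2.35), ubc-3 (2.24) and rpn-8 (2.21) highest. Receptors, transcription factors and chromatin genes did in 5 of 703 (0.711%, 0.231 to 1.65). The 5 with a region were atf-4 (2.69, in a region shared with T04C10.11), nhr-17 (2.44 and 2.28), hlh-11 (2.33), zip-9 (2.06) and nhr-20 (2.00). The members dss-1 (3.37), wdr-5.1 (2.55), mdl-1 (2.23) and tftc-5 (2.14) matched no name and are in no class. The 108 genes in no class were 3.10% of 3488.

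**Figure D5:**
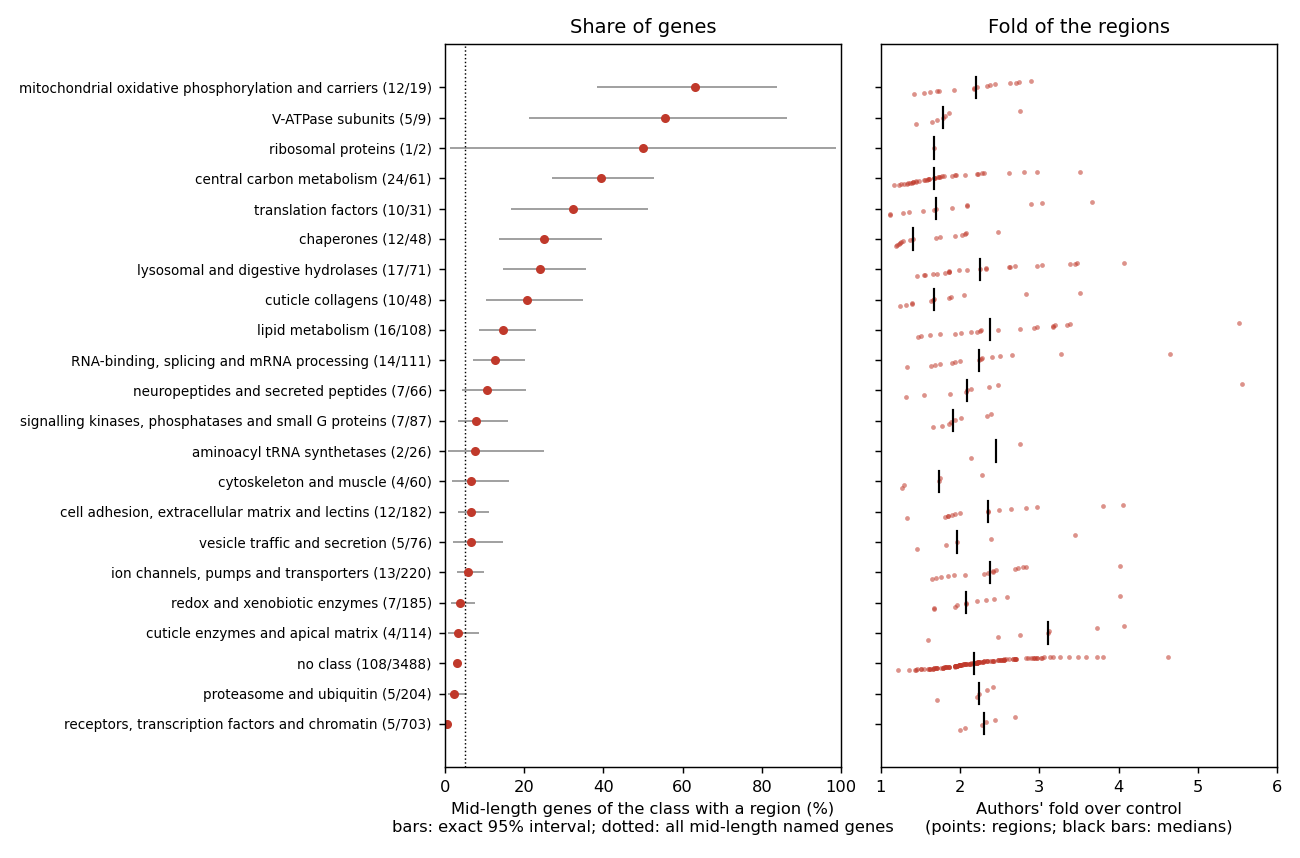
Left, share of mid-length genes with a region in each class (horizontal axis, %; points, with exact 95% binomial intervals as bars; dotted line at 5.07% for all mid-length named genes; counts beside the names). Right, the authors' fold of each region (points) with class medians (black bars). Shares run from 63.2% for oxidative phosphorylation and mitochondrial carriers to 0.711% for receptors, transcription factors and chromatin.

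The chromosomes held between 55 (II) and 69 (IV) of the 385 regions. The share of mid-length named genes with a region was highest on X, 51 of 741 (6.88%, 5.17 to 8.95), and on III, 53 of 806 (6.58%, 4.96 to 8.51). It was 6.20% on IV, 5.42% on I and 4.49% on II, and lowest on V, 51 of 1660 (3.07%, 2.30 to 4.02). Over all protein-coding genes the shares were 4.73% on X, 6.40% on III and 3.42% on V.

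Few regions touched a further gene. A second protein-coding gene was overlapped by 11 of the 385 regions, against 60 of all 1207. Annotated non-coding genes or pseudogenes were overlapped by 26 (6.75%, against 7.79% of all regions), and the summit lay inside such a gene in 3. These were cdc-48.1, whose summit lies inside the snoRNA gene C06A1.9 (fold 3.14, 85 reads over 26.4), algn-12, and chdp-1, with a summit inside C10G11.15, annotated as non-coding RNA (2.35, 33 reads over the floor). snoRNA genes were overlapped in 5 regions, those of nol-56, cdc-48.1, gsp-2, ubxn-3 and rpn-8. For snoRNA genes and for summits inside a non-coding gene, the share over all 1207 regions was not counted. Without strand, reads of a gene and of a gene inside it cannot be told apart.

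Just inside the lower limit were wdr-5.1 (span 1500 bp, fold 2.55), tba-4 (1511 bp, 1.75) and adk-1 (1523 bp, 2.67), and just outside it lys-8 (1474 bp, 1.32), nduf-5 (1488 bp, 2.68) and ant-1.1 (1490 bp, 1.39). Just inside the upper limit were txt-4 (4894 bp, 2.69), sca-1 (4939 bp, 1.70) and eat-4 (4941 bp, 2.30), and just outside it kola-3 (5021 bp, 3.30), top-1 (5053 bp, 1.75) and mrpl-44 (5066 bp, 2.16).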

How the data were processed

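RNA co-purified with MSTR-1::FLAG and input RNA were sequenced from 8 samples, and 1 deposited list of regions was used. STAR and deepTools are named in the submitters' processing notes, without versions. How peaks were called, against which control library, on which build, and how strain-specific regions were picked were not given in the sources used here. This list has no header, and its layout is that of a narrow peak file. In it the authors deposited for each region a score (the −log10 q-value times 10 without its decimals, in each of the 1207 regions), a fold, which is a ratio of treatment over control, a −log10 p-value and q-value, a summit offset and an unlabelled whole number (other). Positions are 1-based.

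Each region was assigned to the RefSeq WBcel235 protein-coding gene of largest overlap (minimum 1 base). Ties, 39 in the list and 3 among the members, went to the gene listed first. Pileup and control were recovered by solving fold = (pileup + 1) / (control + 1) together with the Poisson p-value. Of the 385 pileups 376 were whole to within 0.02, among them all 349 below 300 reads. On 500 simulated regions 100% of genes and pileups were recovered, which tests the solving and not the formulas. Intervals are exact 95% Poisson or binomial intervals and cover counting error only.

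No test was made: the list has no value per library, and regions are not replicates. The members, classes and lists were chosen with earlier results of these data known, and 6 lists after the members were seen. Named genes were the 20 highest folds, 5 widest and 5 narrowest regions, 5 summits nearest each end, genes with at least 3 regions, up to 4 per class, the 3 highest pileups and 3 on each side of the span limits. One gene that this rule names is not reported here. Others, such as those outside the classes, second genes and snoRNA hosts, were chosen after their values were seen. Software was scipy 1.17.1, pandas 2.3.3 and numpy 2.4.6 under Python 3.11.15, with figures from matplotlib 3.10.9.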

Additional observations from a re-analysis of the deposited data

Results flagged for a closer look

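The unlabelled last column of the deposited list, which the report does not use, was above 0 in 110 of the 385 regions (28.6%), against 24.8% of all 1207 regions. It was 1 in 103 regions and 2 in 7. The median pileup was 173 reads where it was above 0 and 48 reads where it was 0, the median fold 1.76 and 2.21, and the median width 716 bp and 645 bp. What the column counts is not stated, so these values are given without a reading.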

How the results depend on the processing

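No paired analysis was possible because no library has values of its own in the list, and leaving out a replicate was likewise not run. The settings with 1 region per gene, above the control floor and with ties to the gene listed last were chosen after seeing the data. Of 49 alternative values, 35 stayed within the 95% interval of the reported value, or within 1.5 times the reported count. The member count was 240 with spans of 2000 bp to below 4000 bp. The median width was 946 bp with folds of at least 3. With that threshold 31.6% of summits lay in the left and 42.1% in the right part of the gene, and with midpoints 30.3% lay in the left and 39.2% in the middle part. The regions of a gene summed covered a median of 36.5% of the span. The median fold was 2.25 with a −log10 q of at least 3, 2.18 with 1 region per gene and 1.95 above the control floor. A fold of at least 2 counted 54.8% of regions and a fold of at least 4 counted 2.34%, by construction. The share of genes with a region was 3.13% with folds of at least 2 and 0.591% with folds of at least 3, also by construction. Summing can only add to the covered share of a gene, and the 1 region kept per gene was that with the highest fold. Both settings therefore favour higher values by construction. The regions at the control floor, left out in the last setting for the fold, had a median fold of 2.48 and a lowest of 1.86. The cause of the other differences was not tested. Joining neighbours within 100 bp changed no region, as no gap was that small. Ties to the gene listed last gave 391 members, with 9 gained and 3 lost. The 78 regions at the control floor had a median pileup of 35 reads, against 67 in the 307 above it.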

Other observations

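Region numbers rise with position, and 257 of the numbers up to 1464 are not in the list. Among 1201 pairs of neighbouring regions on a chromosome, 86.8% had consecutive numbers. Of the 85 pairs within the same mid-length named gene, all 85 did, and 299 of the 302 such pairs in any protein-coding gene did.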
